A study of Sus scrofa with 16 samples.

Results

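The major histocompatibility complex (MHC) class II genes of the pig, named SLA for swine leukocyte antigen, were followed in subcutaneous fat together with CD74, the invariant chain. Probes were taken if the scanner files named them for one of 9 genes (CD74, SLA-DRA, SLA-DRB1, SLA-DQA1, SLA-DQB1, SLA-DMA, SLA-DMB, SLA-DOA and SLA-DOB) and if they were well above background on at least 8 of 16 arrays. Of 25 probes with such a name, 24 met this condition, out of 32216 probes of the array that did. They represent 8 of the 9 genes, out of 4559 named genes with a fitted probe. No probe carries the name SLA-DOA, but 2 probes named LOC100157996 have the gene ID that RefSeq (Sscrofa11.1) gives to SLA-DOA, and their values are given separately from the 24. A further 8 probes are named SLA-DQA, which RefSeq lists as a synonym of SLA-DQA1, and these 10 probes enter no count of the 24.

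The fat was taken at a body weight of 20 kg from pigs with free access to feed (ad libitum), 16 in all, 8 of a strain with low residual feed intake (low-RFI, RFIneg) and 8 of a strain with high residual feed intake (high-RFI, RFIpl). Residual feed intake is the part of an animal's feed intake that its growth and maintenance do not account for. RNA of each pig was read on its own Agilent 1-colour array. Values are log2 signals relative to the 75th percentile of the array's signals, so that 0 is that percentile, and differences are low-RFI minus high-RFI.

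MHC class II molecules are pairs of an alpha and a beta chain that present peptides from endocytosed proteins to CD4+ T cells. Newly made chains assemble on the invariant chain, which fills the peptide groove and directs the complex to endosomes, where proteases degrade it and the DM molecule exchanges its last fragment for a peptide. The DO molecule modulates DM. In adipose tissue, macrophages, dendritic cells and B cells carry class II constitutively, and interferon gamma can induce it in other cell types through the transactivator CIITA.

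The arrays were comparable in depth, with 68.7% to 80.3% of spots well above background and no saturated spot. Defining adipocyte genes were high on all arrays, among them the adipokine ADIPOQ, whose low-RFI mean was 8.32 ± 0.17 (SD, n = 8) and whose high-RFI mean was 8.33 ± 0.23 (SD, n = 8). A pair of arrays stood apart and are named wherever a result rests on them. High-RFI replicate 5 had the highest class II signals, and low-RFI replicate 8 carried skeletal muscle transcripts, with a mean of 9 muscle genes 7.60 above their average over arrays.

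The probes are 60-base oligonucleotides, and several sets of them show how far 2 probes of the same gene can differ. Among the probes with its name, the one of highest mean signal represents each gene below. For SLA-DOA it is the brighter of the 2 assigned probes, and for SLA-DQA1 it is the only probe of that name. Probes named SLA-DQA had higher means, up to 4.61 against 1.33. The CD74 probe has a single forward frame without a stop codon, which alone does not place it in coding sequence.
CD74, A_72_P223292: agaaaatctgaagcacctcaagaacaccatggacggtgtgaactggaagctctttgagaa
The next pair targets SLA-DRB1 with 38 identical bases, shown in capitals.
SLA-DRB1, A_72_P079096: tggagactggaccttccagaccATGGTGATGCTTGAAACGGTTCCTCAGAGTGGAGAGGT
SLA-DRB1, A_72_P626735: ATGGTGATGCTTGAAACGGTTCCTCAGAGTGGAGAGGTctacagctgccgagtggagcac
For SLA-DQB1 the last 30 bases of the first probe and the first 30 of the second are given, with the 17 bases they share in capitals.
SLA-DQB1, A_72_P039061: tcctattttccctCAACAGACTGTGCAAGA
SLA-DQB1, A_72_P585101: CAACAGACTGTGCAAGAgaagcacattgaa
The next pair comes from a DQ alpha chain, the first from a transcript that the files name only TC477478. Over 59 aligned bases they differ at 5, shown in capitals and written, counted from the 5′ end of the first probe, as T4A, C7A, C18G, A41C and A54C.
TC477478, A_72_P743257: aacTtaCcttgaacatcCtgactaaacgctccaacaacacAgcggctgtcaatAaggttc
SLA-DQA, A_72_P763148: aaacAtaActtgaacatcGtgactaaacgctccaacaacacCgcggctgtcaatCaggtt
The last pair holds the only probe that the files call SLA-DQA1. Over 56 aligned bases it differs at 3 from a probe called SLA-DQA, again in capitals within 30 bases of each and written T16C, C33A and C43A from the 5′ end of the SLA-DQA1 probe.
SLA-DQA1, A_72_P765361: aTtaatatgtacatggaaCcaataaatcCc
SLA-DQA, A_72_P244477: aCtaatatgtacatggaaAcaataaatcAc

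Among the probes with a member's name, 1 SLA-DOB probe (A_72_P440006) was well above background on 1 array only and another (A_72_P634856) on 13, and the remaining probes were so on all 16. After outlier spots were left out, 1 SLA-DQB1 probe (A_72_P672583) had values on 10 arrays. It met the condition on background and was not fitted, so 23 probes entered the comparisons. Signals of different probes depend on their sequences and are not ranked against each other here.

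CD74, the chaperone of the class II chains, ranged from 1.60 to 2.92 in low-RFI pigs (median 2.44, n = 8) and from 2.35 to 3.67 in high-RFI pigs (median 2.72, n = 8). The lines overlapped, with low-RFI replicate 8 lowest and high-RFI replicate 5 highest of all 16 arrays. The difference was -0.37 (SE 0.19), with a 95% interval from -0.77 to 0.04, and 7 of 8 low-RFI arrays lay below the high-RFI mean.

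SLA-DRA encodes the DR alpha chain, the partner of all DR beta chains. Its signal ranged from 4.35 to 5.81 in low-RFI pigs (median 5.46, n = 8) and from 5.12 to 6.53 in high-RFI pigs (median 5.48, n = 8), and the same 2 arrays were the lowest and the highest. The difference was -0.20 (SE 0.22). SLA-DRB1, a DR beta chain, is polymorphic in pigs. It lay between 2.96 and 4.27 in low-RFI (median 3.61, n = 8) and between 3.02 and 4.87 in high-RFI pigs (median 3.67, n = 8), again with high-RFI replicate 5 on top and the lines overlapping. Its difference was -0.12 (SE 0.24).

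The DQ chains form the other classical class II molecule, and both are polymorphic. The probe named SLA-DQA1 ranged from 0.78 to 1.95 in low-RFI pigs (median 1.38, n = 8) and from 0.17 to 2.48 in high-RFI pigs (median 1.52, n = 8). The high-RFI arrays held both its extremes, replicate 6 at the bottom and replicate 5 at the top. The difference between the lines was -0.05 (SE 0.29). Over the 9 probes named SLA-DQA1 or SLA-DQA the difference ranged from -0.48 to -0.05, so that of this probe was closest to 0. SLA-DQB1, the beta chain, ranged from 4.05 to 4.96 in low-RFI pigs (median 4.56, n = 8) and from 4.04 to 5.83 in high-RFI pigs (median 4.71, n = 8). The high-RFI range contained the low-RFI range. Here the difference was -0.22 (SE 0.21).

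SLA-DMA and SLA-DMB encode the 2 chains of DM, which loads peptides. SLA-DMA lay between 2.47 and 3.18 in low-RFI (median 2.94, n = 8) and between 2.81 and 4.10 in high-RFI pigs (median 3.0, n = 8). SLA-DMB lay between 1.94 and 3.14 in low-RFI (median 2.73, n = 8) and between 2.28 and 4.0 in high-RFI pigs (median 2.65, n = 8). For both genes low-RFI replicate 8 was lowest and high-RFI replicate 5 highest, and the other arrays of the lines overlapped. The differences were -0.22 (SE 0.17) for SLA-DMA and -0.09 (SE 0.22) for SLA-DMB.

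SLA-DOB and SLA-DOA encode the chains of DO. SLA-DOB lay below the percentile on all arrays, from -5.18 to -3.39 in low-RFI pigs (median -4.03, n = 8) and from -4.79 to -2.37 in high-RFI pigs (median -4.0, n = 8). Only high-RFI replicate 5 exceeded the low-RFI range. The probe assigned to SLA-DOA through its gene ID ranged from -1.30 to 1.27 in low-RFI pigs (median -0.11, n = 8) and from -1.14 to 1.30 in high-RFI pigs (median 0.20, n = 8). In this gene high-RFI replicate 5 and low-RFI replicate 5 reached nearly the same value. The differences were -0.16 (SE 0.30) for SLA-DOB and -0.30 (SE 0.38) for SLA-DOA. The other probe assigned to SLA-DOA differed by -0.15 and was highest on low-RFI replicate 5, at 1.42.

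**Figure D1:**
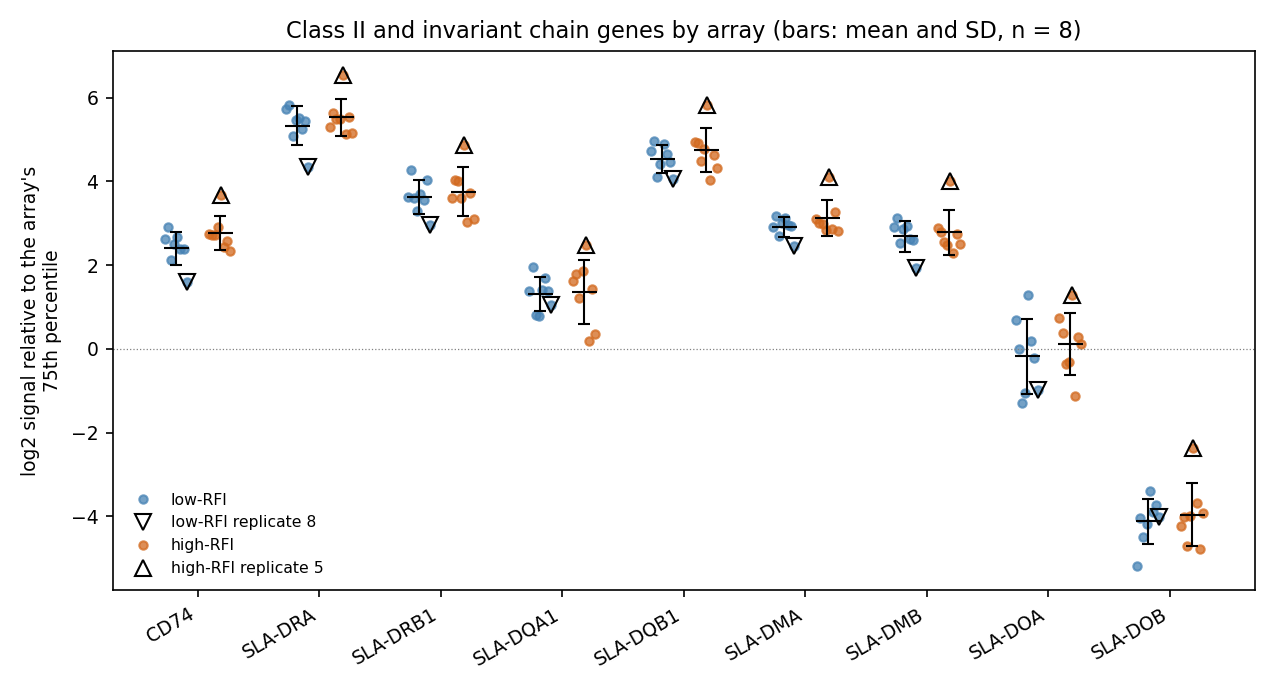
Log2 signal relative to the array's 75th percentile (vertical axis) for the probe that represents each of 9 genes, by line, with 1 point per pig and bars for the mean and SD (n = 8). High-RFI replicate 5 (upward triangle) is the highest point of each gene, and low-RFI replicate 8 (downward triangle) is the lowest of CD74, SLA-DRA, SLA-DRB1, SLA-DMA and SLA-DMB. Heights of different genes come from different probes and are not comparable.

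The comparison of the lines asks whether selection on feed efficiency goes with the class II signal of the fat. No member probe passed the test. In limma, 0 of 23 member probes passed an adjusted p under 0.05, as did 0 of all 32097 probes tested (0%), and the adjusted p of each of the 9 genes was 1.0. At an unadjusted p under 0.05 there were 0 member probes, against 3.68% of all probes. For 8 of the 9 genes, SLA-DOA being the exception, the 95% interval left out 2-fold changes both up and down, and for 2 genes it left out 1.5-fold changes.

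The estimates nevertheless lay on the same side, since 23 of 23 member probes were below 0, that is, lower in low-RFI pigs, where 50% of all probes were. Their median was -0.20 and their range -0.42 to -0.02. The 10 probes outside the naming rule were below 0 as well. These probes were read on the same arrays and moved together over the pigs, so they are no separate observations of the lines. With another background correction (normexp) the median of all probes itself moved to -0.12 and 68.3% of them fell below 0, and 19 of 23 member probes did, with a median of -0.12.

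High-RFI replicate 5 was the highest of 16 arrays on 23 of 23 member probes, and on average over 8 genes it lay 1.22 above the mean of all arrays. Without it 14 of 23 member probes were below 0, where 50.3% of all probes were, and their median was -0.06. The sign then turned for SLA-DRB1 (0.04), SLA-DQA1 (0.10), SLA-DMB (0.08) and SLA-DOB (0.07). Among the probes that represent the 9 genes, that of CD74 kept the difference farthest from 0, -0.24 (SE 0.16). Over all 23 member probes the farthest was another probe, at -0.28. No probe of the array passed the threshold in limma (0%). At an unadjusted p under 0.05 there were 0 member probes and 4.08% of all probes. Low-RFI replicate 8, lowest on 14 of 23 member probes, was at the other end, and without it 18 of 23 probes were below 0 with a median of -0.08.

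Each of the 4 slides held 2 arrays of each line. Within slide 1, where 4 of 23 member probes were below 0, the median was 0.28, whereas it was -0.60, -0.32 and -0.33 within slides 2 to 4. With slide as a block 0 member probes passed in limma. The median was again -0.20, which it must be since each slide holds as many arrays of either line.

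**Figure D2:**
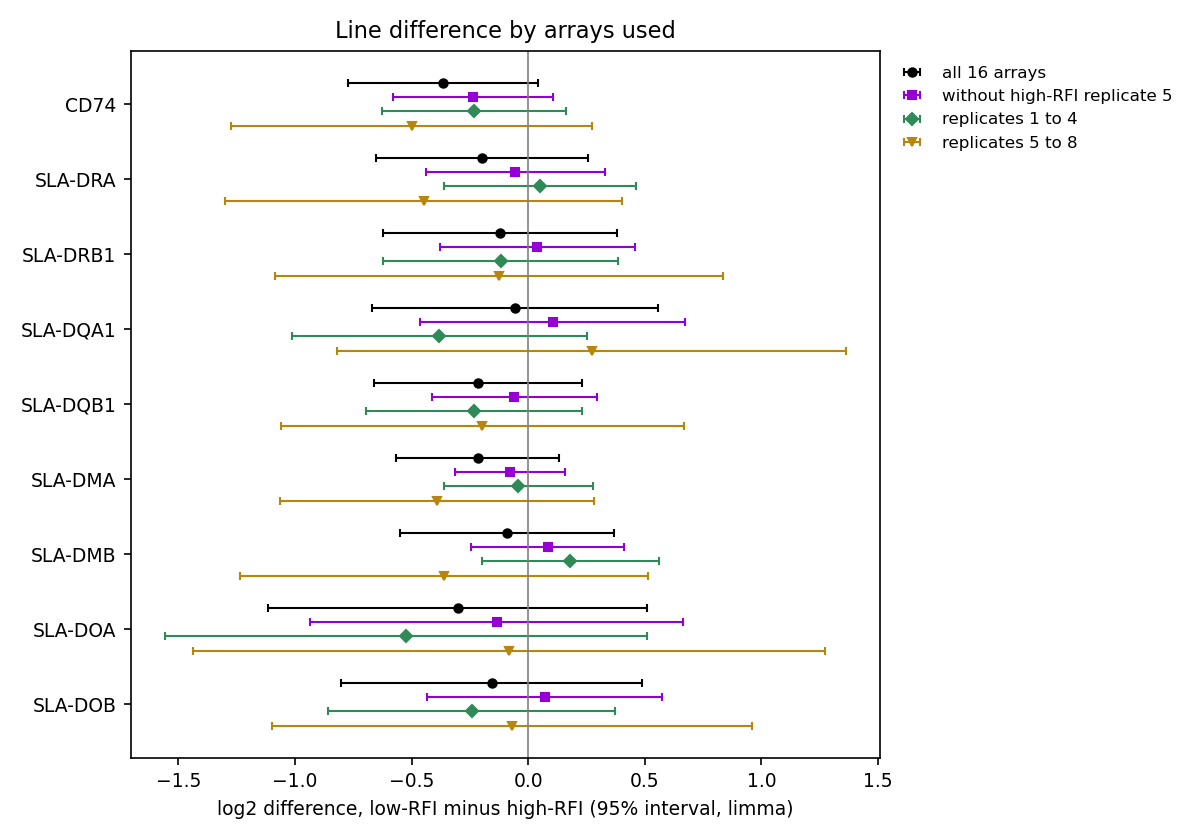
Log2 difference between the lines (low-RFI minus high-RFI, horizontal axis) with its 95% interval from limma for the probe that represents each of 9 genes, from all 16 arrays, without high-RFI replicate 5, and within replicates 1 to 4 and 5 to 8. All 9 estimates from 16 arrays lie below 0, all 36 intervals include 0, and the estimates move toward or past 0 when high-RFI replicate 5 is left out.

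Replicates 1 to 4 and 5 to 8 were compared because the arrays as a whole differed between them. The labels do not say what sets these numbers apart. Of all probes, 5.18% (1662) differed between replicates 5 to 8 and 1 to 4 in limma with line in the model, and 0 of 23 member probes did. With the normexp background correction 17 of all probes passed. At an unadjusted p under 0.05 there was 1 member probe, against 23.5% of all, and 18 of 23 were below 0, against 54.8%. SLA-DOB came closest, with a mean of -4.48 ± 0.51 (SD, n = 4) in replicates 1 to 4 and -3.76 ± 0.27 (SD, n = 4) in replicates 5 to 8 of the low-RFI line, and -4.23 ± 0.33 and -3.69 ± 1.0 (SD, n = 4 each) in the high-RFI line. The difference of this probe was 0.63 (SE 0.27, adjusted p = 0.17 in limma), and that of the other fitted SLA-DOB probe was 0.08 (SE 0.22). The other 8 genes differed by -0.18 to 0.26 between the sets of replicates. Within the high-RFI line 4.58% of all probes differed between the sets of replicates and within the low-RFI line 0%, and in both 0 member probes passed. The unadjusted counts were 0 member probes against 23.3% of all in the high-RFI line, and 1 against 8.58% in the low-RFI line.

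The line difference was examined in each set of replicates. Within replicates 1 to 4, 15 of 23 member probes were below 0 (51.5% of all probes), with a median of -0.04, and 0.0156% of all probes (5) passed in limma, none of them a member (unadjusted, 0 members and 5.63% of all). Within replicates 5 to 8, which hold both arrays that stood apart, 22 of 23 were below 0 (50.1% of all probes), with a median of -0.42, and 0% of all probes passed (unadjusted, 0 members and 5.48% of all). The test of the difference between these line effects (an interaction in limma) passed for 0 of 23 member probes and for 0% of all probes. At an unadjusted p under 0.05 it gave 0 member probes and 6.81% of all probes, and 19 of 23 estimates were below 0, against 49.7%. SLA-DMB had the interaction estimate -0.54 (SE 0.43) and SLA-DQA1 0.65 (SE 0.58), on opposite sides of 0. The SLA-DQA1 interaction without high-RFI replicate 5 was 1.11 (SE 0.44, adjusted p = 0.78 in limma).

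Across pigs most members rose and fell together. Of 36 pairs among the 9 genes, 28 had an adjusted permutation p under 0.05 for Pearson's r and 27 for Spearman's rho (16 arrays, 100000 permutations, adjusted over the 36 pairs). Passing pairs were not counted for other sets of genes, so whether 28 is more than such sets would give was not tested. For single genes, the median r with the class II mean was 0.01 over 4443 genes, and 0.11 without high-RFI replicate 5. The 21 pairs among CD74, DRA, DRB1, DQA1, DQB1, DMA and DMB all passed, with r from 0.64 to 0.94 (median 0.86) and rho from 0.58 to 0.91. CD74 and SLA-DRA were most alike, with r = 0.94 and rho = 0.81 (adjusted permutation p = 0.00012 and 0.0016). The DM chains had r = 0.93 and rho = 0.83 (adjusted permutation p = 0.00012 and 0.0016). The probes that represent the DQ chains had r = 0.87 and rho = 0.91 (adjusted permutation p = 0.00015 and 0.00036). The DQ values hold for these probes only, since another SLA-DQB1 probe (A_72_P585101) had r = 0.50 with the one used here.

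The relation among the 7 genes was weaker without the extreme arrays and kept a positive r in all 21 pairs. Without the 2 arrays farthest from the median, which were high-RFI replicate 5 and either low-RFI replicate 8 or high-RFI replicate 6, r of the 21 pairs ranged from 0.40 to 0.79 (median 0.67). The median was 0.74 without high-RFI replicate 5 alone. Within replicates 1 to 4 the median r was 0.60 (n = 8) and within replicates 5 to 8 it was 0.91 (n = 8), and after removal of the line means it was 0.85. The number of passing pairs out of 36 was less stable, at 20 without high-RFI replicate 5, 13 without it and low-RFI replicate 8, 2 within replicates 1 to 4 and 23 within replicates 5 to 8.

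The DO chains behaved differently from each other. SLA-DOA had r from 0.56 to 0.82 with the 7 genes, highest with SLA-DQB1, and 7 of its 8 pairs passed, the one with SLA-DOB being the exception. SLA-DOB had r from 0.31 to 0.55 and 0 of its 8 pairs passed, with rho between -0.05 and 0.18. With each gene taken as the mean of its probes, 2 of its 8 pairs passed, with r from 0.28 to 0.65, so its count rests on the probe used. Its r ranged from -0.23 to 0.01 without high-RFI replicate 5, so the positive r over 16 arrays rested on that array.

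**Figure D3:**
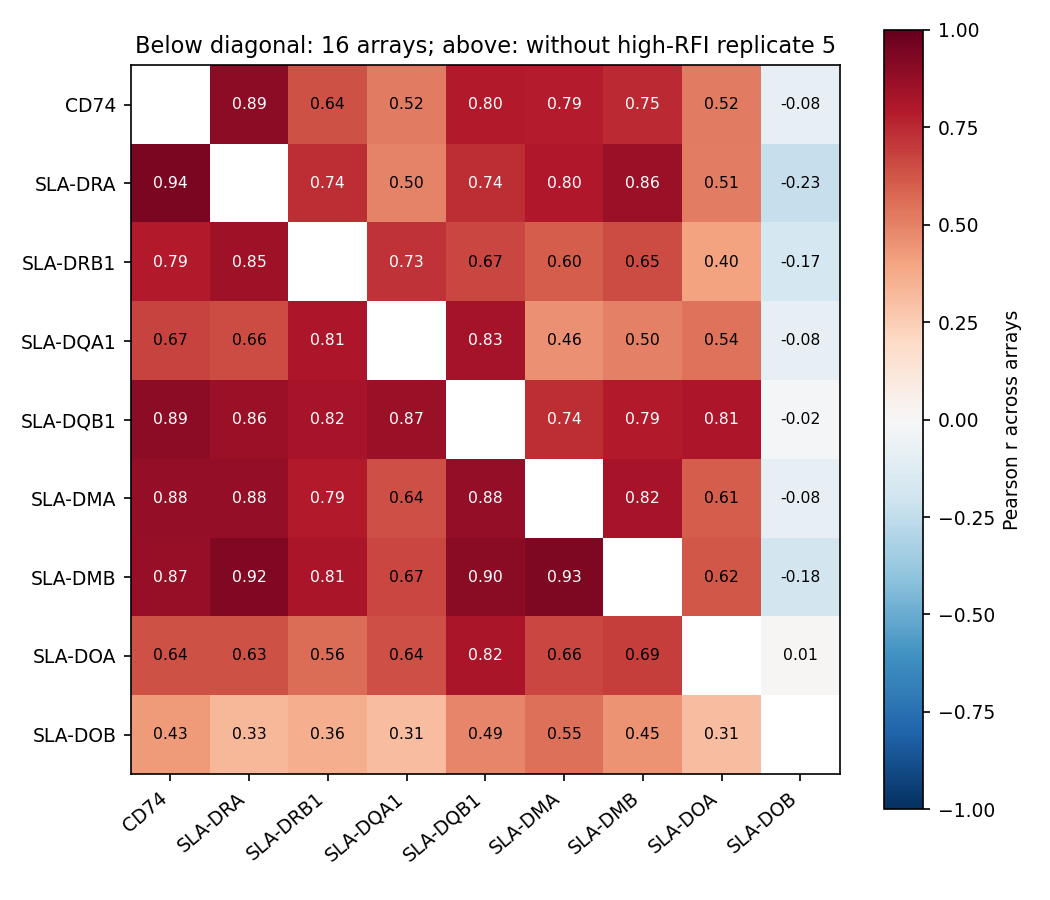
Pearson r between the probes that represent the 9 genes across arrays, below the diagonal over 16 arrays and above it over 15 arrays without high-RFI replicate 5. The block of 7 genes from CD74 to SLA-DMB has r between 0.64 and 0.94 below the diagonal and between 0.46 and 0.89 above it, whereas SLA-DOB falls to between -0.23 and 0.01 above it.

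Probes of the same gene agreed closely for most members. The 7 SLA-DRA probes had r from 0.97 to 0.99 over 21 pairs, the 4 SLA-DRB1 probes from 0.97 to 0.99 over 6 pairs, and the pairs of CD74, SLA-DMB, SLA-DOA and SLA-DMA probes 0.99, 0.99, 0.98 and 0.92. These are descriptions over 16 arrays, since probes of a gene share its RNA and hybridization. The SLA-DRB1 probes printed above with 38 bases in common had r = 0.98. By contrast, the SLA-DQB1 probes with 17 bases in common had r = 0.50, and 0.15 without high-RFI replicate 5. The line difference of the 3 fitted SLA-DQB1 probes still ranged only from -0.42 to -0.22. Both fitted SLA-DOB probes had r = 0.60, and 0.33 without that array.

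The DQ alpha chain had the least uniform probes, with r from -0.40 to 0.98 over the 36 pairs of 9 probes named SLA-DQA1 or SLA-DQA. Of these, 2 probes named SLA-DQA were singled out after their values were seen, and without them r of the other 7 ranged from 0.46 to 0.98. A_72_P742057 reached 3.86 on low-RFI replicate 4, 3.49 on high-RFI replicate 6 and 3.47 on high-RFI replicate 8, and lay between 0.57 and 2.50 on the other 13 arrays. On those same 3 pigs the SLA-DQA1 probe had its lowest values, 0.78, 0.17 and 0.35. An unnamed transcript that the files describe as the alpha chain of a DQ haplotype (TC473479) followed the first of these patterns, at 2.44, 1.90 and 1.97 on the 3 arrays and from -3.78 to -1.03 elsewhere. It had r = 0.95 with A_72_P742057 and -0.63 with the SLA-DQA1 probe. The 3 pigs came from both lines.

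A_72_P763148, printed above beside the TC477478 probe, had another pattern. It lay between -0.62 and 0.44 on 7 arrays (low-RFI replicates 1, 2, 3 and 7 and high-RFI replicates 3, 7 and 8) and between 1.53 and 2.57 on the other 9. The probe of TC477478, which differs from it at 5 of 59 bases, had r = 0.82 with it. That probe was below 0 on 6 of these 7 arrays and at 1.64 on high-RFI replicate 8. The DQ alpha probe A_72_P244477, which the SLA-DQA1 probe resembles but for 3 bases, showed no such gap and stayed between 3.81 and 5.47. No sequence of these pigs was read, so whether the probes meet different alleles was not tested. The signal of a single DQ probe is therefore given as the signal of that probe and not as the level of the gene.

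**Figure D4:**
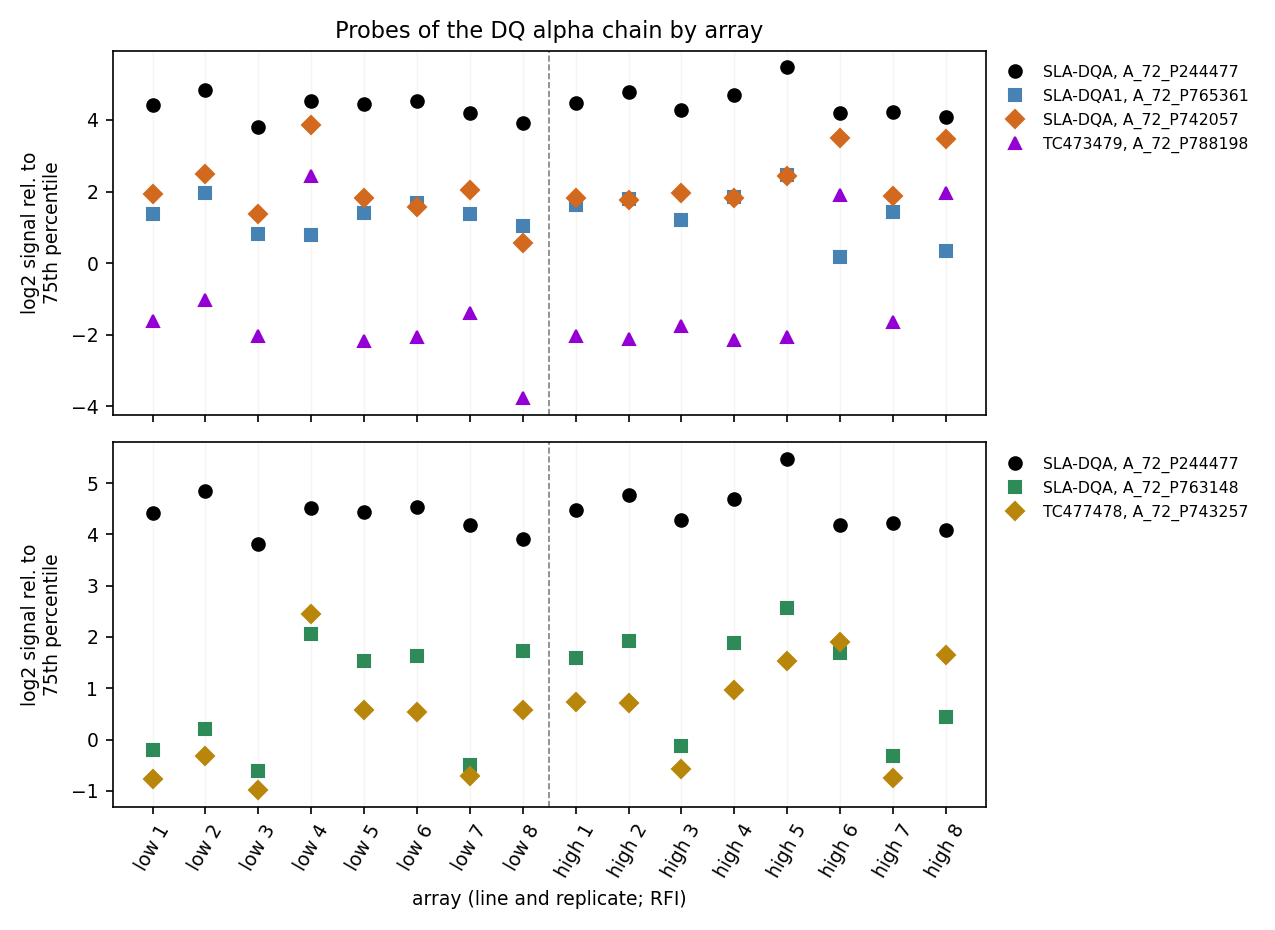
Log2 signal relative to the array's 75th percentile (vertical axis) of probes of the DQ alpha chain on each of 16 arrays (horizontal axis; low and high are the RFI lines, the dashed line separates them). In the upper panel A_72_P742057 and the TC473479 probe are high on low 4, high 6 and high 8, where the SLA-DQA1 probe is low. In the lower panel A_72_P763148 and the TC477478 probe are low on low 1, 2, 3 and 7 and on high 3 and 7, while A_72_P244477 shows no such gap.

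Genes around the class II pathway were read from lists, each gene by its probe of highest mean signal. In limma 0 genes of each list differed between the lines. Of 8 listed class II transcription factors 5 were measured, 3 above and 2 below 0. CIITA, the transactivator that class II transcription depends on, differed by -0.08 (SE 0.09), and its r with the mean of the member genes was 0.14 over 16 arrays. NFYC, a subunit of the factor that binds the CCAAT box, differed by 0.23 (SE 0.10) without passing, and rose by 0.28 in replicates 5 to 8 against 1 to 4 (adjusted p = 0.041 in limma). RFX5, a subunit of the factor at the X box of class II promoters and the exception in this list, had r = 0.67 with the member mean, and 0.57 without high-RFI replicate 5.

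Of 16 genes of processing and endosomal traffic 12 were measured, of which 2 lay above and 10 below 0 between the lines. LAMP2, a lysosomal membrane protein, differed by -0.27 (SE 0.15) and CTSZ, a cathepsin, by -0.29 (SE 0.19), and neither passed. Of the 12 genes, 3 fell in replicates 5 to 8 against 1 to 4 in limma, where 5.18% of all probes changed. The cathepsins CTSD and CTSH fell by 0.77 (adjusted p = 0.021) and 0.74 (adjusted p = 0.011), and LAMP1 fell by 0.38 (adjusted p = 0.025). The list mean had r = 0.60 with the member mean, and 0.57 without high-RFI replicate 5.

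MHC class I and interferon gamma genes had line differences on the same side as the members. All 17 measured of 21 class I genes were below 0 (median -0.15), among them SLA-6 at -0.43 (SE 0.22) and SLA-3 at -0.36 (SE 0.21). All 13 fitted of 17 interferon gamma genes were below 0 (median -0.31), among them the receptor chain IFNGR1 at -0.31 (SE 0.13) and the kinase JAK2 at -0.24 (SE 0.11). Of 10 costimulation genes 5 were fitted and all were below 0 (median -0.29), among them CD80 at -0.48 (SE 0.27) and CD40 at -0.41 (SE 0.25). For comparison, 50% of all probes were below 0, and without high-RFI replicate 5 the 3 medians were -0.05, -0.16 and -0.13.

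The means of these lists followed the class II mean over the pigs, as a description over 16 arrays that share RNA and hybridization. For class I r was 0.91, for interferon gamma signalling 0.87 and for costimulation 0.81. These values were 0.72, 0.67 and 0.46 without high-RFI replicate 5. On that array the 3 list means lay 0.94, 1.46 and 1.44 above their averages.

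The list means of macrophage, dendritic cell, and T and NK cell markers also moved with class II, mostly through the same array. Of 16 macrophage markers 11 were measured, 9 of them below 0 between the lines, and their mean had r = 0.71 with the class II mean and 0.32 without high-RFI replicate 5. Their summed linear signal, in units of the array's 75th percentile, ranged from 11.6 to 27.0 in low-RFI and from 14.1 to 72.0 in high-RFI pigs, where the next highest array was at 28.1. Single markers had r with class II from 0.25 for CD163, a scavenger receptor, to 0.80 for FCER1G, an Fc receptor chain. The range was from -0.53 for CD163 to 0.66 for LYZ, lysozyme, once that array was left out. Of 12 dendritic cell markers 5 were measured, with r = 0.75 for their mean and 0.20 without the array, and summed signals from 1.26 to 2.45 and from 1.53 to 5.14. T and NK cell markers, 10 fitted of 14, had r = 0.61 and 0.23, and summed signals from 10.9 to 19 in low-RFI and from 11.6 to 21.1 in high-RFI pigs.

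The B cell markers that were fitted gave another picture in their mean. Of 12 listed, 3 were fitted. FCER2, the low-affinity IgE receptor, was well above background on 0 arrays, and CD79A, a chain of the B cell receptor complex, on 7. The mean of the 3 had r = -0.10 with the class II mean, and their summed signal ranged from 0.89 to 2.42 in low-RFI and from 1.08 to 2.61 in high-RFI pigs. High-RFI replicate 5 was at 1.66, inside both ranges. Its summed signal of T and NK cell markers also lay inside both ranges of that list, so this measure does not set B cell markers apart. In that sum CD247 had the highest mean signal (3.57 in low-RFI and 3.49 in high-RFI pigs). Relative to its mean over the other arrays, CD247 was at -0.46 there. The remaining fitted T and NK cell markers were higher there, from 0.68 for GZMK to 2.42 for CD2. By list means the array lay 1.39 above the average for T and NK cell markers and at -0.06 for B cell markers. CD72 and POU2F2, B cell genes outside this list, were highest on that array, with r = 0.90 and 0.87 with the class II mean. Their r was 0.75 and 0.63 without that array. Of 6 lymph node stroma markers, all fitted, 3 were above and 3 below 0 between the lines. Their summed signal on high-RFI replicate 5 was 9.52, against 2.29 to 7.0 in low-RFI pigs and up to 6.0 in the other high-RFI pigs. Relative to their means over the other arrays, CCL21 was at 0.08 and MADCAM1 at -0.11 there, and the remaining markers were higher. The list mean had r = 0.36 with the class II mean, and -0.31 without that array.

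Markers of the other cell types of the tissue and its surroundings differed in their relation to class II. The endothelial mean (7 of 11 markers measured, summed signal 53.7 to 84.2 in low-RFI and 62.6 to 89.5 in high-RFI pigs) had r = 0.57, and 0.66 without high-RFI replicate 5. The adipocyte mean (11 of 12 measured, summed signal 1139 to 1604 and 1175 to 1554) had r = 0.08, and 0.55 without that array. The skeletal muscle mean (9 of 10 fitted, summed signal 12.3 to 1690 and 12.9 to 29.8) had r = -0.43 and -0.58, with its highest value on low-RFI replicate 8, where class II was lowest. The skin epithelium mean (5 of 9 fitted, summed signal 0.36 to 2.91 and 0.61 to 9.56) had r = -0.28 and -0.17. The part of any of these cells in the class II signal was not tested, and in whole tissue fewer cells of a type and less RNA per cell cannot be told apart.

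**Figure D5:**
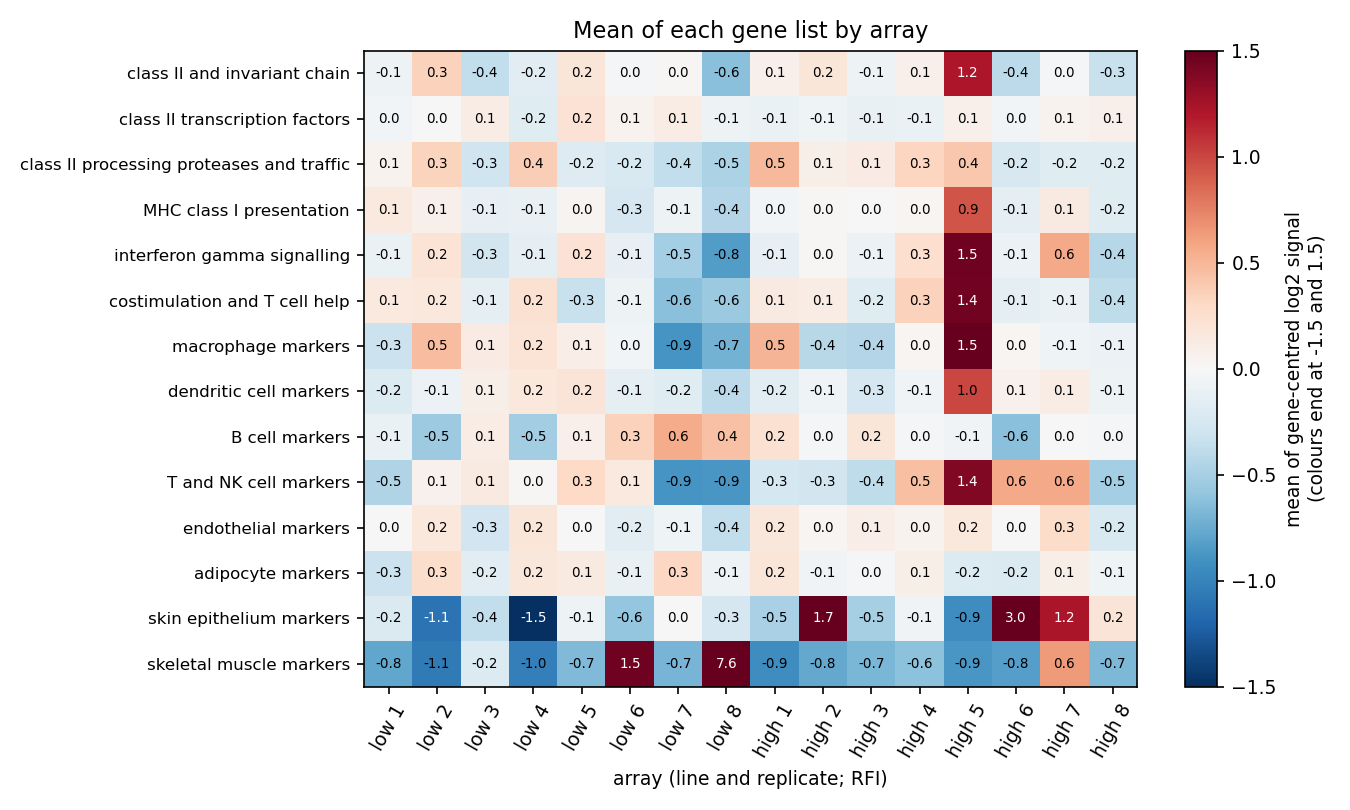
Mean over the genes of each list of the log2 signal centred on each gene's mean over 16 arrays (colour and printed value), by array (horizontal axis; low and high are the RFI lines). High 5 is the highest array for class II (1.2) and also high for class I, interferon gamma, costimulation, macrophage, dendritic and T cell lists but not for the B cell list, and low 8 is the lowest for class II (-0.6) with skeletal muscle at 7.6.

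Outside the members, the 8 named genes whose signal was most like the class II mean over 16 arrays included B2M (r = 0.91), the light chain of class I molecules, and CXCL11 (r = 0.91), an interferon-inducible chemokine. CD72 (r = 0.90), a coreceptor of B cells, POU2F2 (r = 0.87), a transcription factor of B cells, and TLR8 (r = 0.84), an endosomal receptor for RNA, were also among them. The remaining ones were TBXAS1 (thromboxane synthase, r = 0.85), PNOC (the precursor of nociceptin, r = 0.85) and RPL13A (a ribosomal protein, r = 0.88). Likeness was measured over 4443 genes, whose median r was 0.01 and of which 0.585% had r above 0.8. Without high-RFI replicate 5, B2M, CXCL11 and CD72 had r = 0.75 and ranked 12 to 14, and RPL13A had r = 0.75 and ranked 16. TLR8 (r = 0.65), TBXAS1 (r = 0.63), POU2F2 (r = 0.63) and PNOC (r = 0.60) fell to ranks 71, 90, 92 and 136. Thus 0 of the 8 genes were still among the first 8. RPL22, a ribosomal protein, then came first at r = 0.93, and UBD, an interferon-inducible ubiquitin-like modifier, had r = 0.78 with and without that array.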

How the data were processed

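The 9 genes and the gene lists were chosen with earlier results of these data known. The authors deposited, per the file headers, spot intensities from Agilent Feature Extraction 10.7.3.1, with processed, mean and background intensity columns, and a table of log2 values, which equal the log2 processed signal minus a median on the 28963 spots it lists. The submitters' processing notes name R 2.10.0. Computed here: outlier spots were left out, spots of a probe averaged, and the 75th percentile of each array subtracted on the log2 scale. Probes well above background on at least 8 arrays with at least 6 values in each line were fitted (32097), with limma 3.58.1 in R 4.3.3, two-sided, with Benjamini-Hochberg adjustment over all of them. The fit was tested on simulated data. Members, and up to 3 genes per direction and list past the threshold (otherwise the 2 smallest p), were named. RFX5, CD163, FCER1G, LYZ, ADIPOQ, UBD and DQ probes singled out were chosen after their values were seen. Symbols came from names, gene IDs, accessions and 11 descriptions. Pigs were not treated as paired by replicate number (r from -0.29 to 0.32 between same-numbered arrays, over 0.1 in 3 of 8). These r do not exclude a pairing. With the replicate number as a block the SE of each of the 9 genes fell, that of CD74 from 0.19 to 0.14. The number of arrays limits the precision. Alternatives covered background correction, scaling, filter, blocks, weights and arrays left out. Promoter sequences were not used here. A result for a listed marker gene is not reported here.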

Additional observations from a re-analysis of the deposited data

Results flagged for a closer look

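High-RFI replicate 5 lay farther from the other high-RFI pigs than Dixon's 95% limit allows for 5 of the 9 genes, and no low-RFI pig did so for any gene. CD74 was at 3.67 on that array against 2.90 on the next highest, and SLA-DRA at 6.53 against 5.63. SLA-DMA was at 4.10 against 3.26, and SLA-DMB at 4.0 against 2.89. SLA-DOB was at -2.37 against -3.68. Of 18 tests (9 genes in 2 lines), chance flags about 1 in 20, and the genes share their arrays, so the 5 flags are not separate observations. The same array was also the highest for the probes that represent SLA-DRB1, SLA-DQA1, SLA-DQB1 and SLA-DOA, within the limit. On the other SLA-DOA probe low-RFI replicate 5 was higher, at 1.42 against 1.16.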

How the results depend on the processing

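Over 32 alternatives 0 member probes passed between the lines in limma, and 260 of 288 differences of the 9 genes kept their sign. That count includes the blocks and the probe filters, which return the same difference by construction. It also includes arrays left out 1 at a time, which share most arrays with the main fit. Of all probes, 1 passed without low-RFI replicate 4 (range 0 to 1 over arrays left out in turn) and 5 within replicates 1 to 4. All 9 differences turned above 0 within slide 1, with CD74 at 0.064, SLA-DRA 0.42, SLA-DRB1 0.84, SLA-DQA1 0.76, SLA-DQB1 0.22, SLA-DMA 0.061, SLA-DMB 0.28, SLA-DOA 0.087 and SLA-DOB 0.070. Within the other slides those above 0 were SLA-DOA 0.14 (slide 2), SLA-DOB 0.19 (slide 3), SLA-DQA1 0.14 and SLA-DOB 0.21 (slide 4). Within replicates 1 to 4 they were SLA-DRA 0.051 and SLA-DMB 0.18, and within replicates 5 to 8 SLA-DQA1 0.27. With array weights they were SLA-DQA1 0.010 and SLA-DOB 0.060, and with normexp SLA-DMB 0.0026. Without high-RFI replicate 5 they were SLA-DRB1 0.039, SLA-DQA1 0.10, SLA-DMB 0.083 and SLA-DOB 0.070. SLA-DQA1 was also at 0.016 without low-RFI replicate 3, 0.019 without low-RFI replicate 4, 0.0051 without high-RFI replicate 2 and 0.015 without high-RFI replicate 4, and SLA-DMB at 0.015 without low-RFI replicate 8. Leaving out arrays in turn gave SLA-DRB1 -0.23 to 0.039, SLA-DQA1 -0.22 to 0.10, SLA-DMB -0.16 to 0.083 and SLA-DOB -0.27 to 0.070. The cause was not tested, but within a slide 4 arrays entered and within a set of replicates 8. With the replicate number as a block 0 probes passed, and 4 of 23 member probes had an unadjusted p under 0.05, as did 4.8% of all probes.

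Pairs of members that passed numbered 28, 29 with the mean over the probes of a gene, and 2 within replicates 1 to 4, where 8 arrays entered. Without high-RFI replicate 5 they were 20, and without it and low-RFI replicate 8 they were 13, an alternative chosen after seeing the data. Of all probes, 1662 differed between the sets of replicates, 865 with no filter on dim probes and 17 with normexp, with 0 member probes in each.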

Other observations

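Some transcripts that the files leave without a gene name are described there as class II chains and were not among the members. Of 8 such probes 6 were fitted. The probe of TC453491, described as similar to part of a DR beta chain, had r = 0.94 over 16 arrays with that of the DQ alpha transcript TC477478 and 0.80 with the SLA-DQA probe A_72_P763148. It had r = 0.01 with the mean of the member genes. Its values lay between -4.63 and -3.16 on low-RFI replicates 1, 2, 3 and 7 and high-RFI replicates 3 and 7, and between -2.75 and -0.77 on the other 10 arrays.

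The SLA-DQB1 probe A_72_P585101 had r = 0.89 with the TC477478 probe and 0.88 with A_72_P763148, and 0.94 and 0.87 without high-RFI replicate 5. The other SLA-DQB1 probe printed with it, A_72_P039061, had r = 0.87 with the SLA-DQA1 probe. The beta chain probes thus differed in which alpha chain probe they followed across pigs. These relations were chosen after the values were seen and are given as descriptions, with no test.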
